A study of Mus musculus with 21 samples.

Results

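The knockout of JNK1 was compared with wild type across skin, liver and fat at once, to find the genes whose difference between the genotypes was common to the 3 tissues. All 21 samples of the study entered this comparison. They came from male C57Bl6/J mice on a high fat diet from 5 to 44 weeks of age, killed at 45 weeks, and either carried the JNK1 knockout or were wild type. There were 4 knockout and 3 wild-type samples of skin, 3 of each genotype of liver, and 4 of each of epididymal fat, or 11 knockout and 10 wild-type samples in all. Both genotypes were on the high fat diet. The series' text speaks of 4 samples per condition, of which those above were analysed here. The labels give neither the allele nor the exons removed, and do not say whether each sample is a separate mouse, so that p-values measure only the spread between these samples. Total RNA (0.2 ug per labelling) was labelled with Cy3 and hybridised to 1-colour Agilent arrays. Of 27558 genes on the array, 13859 passed the filter on dim probes and were tested, since 3 or more arrays of a tissue were well above background in at least 2 of the tissues. Of these, 12905 had a gene symbol and 954 only a transcript or probe accession.

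JNK1, encoded by Mapk8, is a stress-activated MAP kinase. Upstream kinases switch it on in response to cytokines, saturated fatty acids and oxidative stress, and it phosphorylates Jun and other members of the AP-1 family of transcription factors. In obesity JNK activity is known to rise in liver and fat, where it dampens insulin signalling, and mice lacking JNK1 are known to gain less weight on a high fat diet. A related kinase, JNK2 (Mapk9), is expressed in most of the same tissues.

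The promoters of the genes that the results turn on were taken from RefSeq (build GRCm38.p6), as the 250 bases before the annotated start. These were found for 12 of the 13 genes called below, all but Pisd-ps3, and number 14, since Mapk8 and Asb4 have a second annotated start. The 3 shown are those of the gene with the largest difference, of the targeted gene (the first of its starts on its strand) and of the called gene with a motif match. The sequence is in lower case, 5′ to 3′ on the gene's strand, and capitals mark a match to TGACGTCA, the cAMP response element bound by ATF and Jun family dimers.

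Gpnmb, chr6:49036268-49036517, plus strand: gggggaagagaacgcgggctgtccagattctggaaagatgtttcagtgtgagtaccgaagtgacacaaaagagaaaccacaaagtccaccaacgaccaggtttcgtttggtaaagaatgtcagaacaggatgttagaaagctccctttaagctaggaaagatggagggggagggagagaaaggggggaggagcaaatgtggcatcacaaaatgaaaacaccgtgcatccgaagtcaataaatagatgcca
Mapk8, chr14:33447159-33447408, minus strand: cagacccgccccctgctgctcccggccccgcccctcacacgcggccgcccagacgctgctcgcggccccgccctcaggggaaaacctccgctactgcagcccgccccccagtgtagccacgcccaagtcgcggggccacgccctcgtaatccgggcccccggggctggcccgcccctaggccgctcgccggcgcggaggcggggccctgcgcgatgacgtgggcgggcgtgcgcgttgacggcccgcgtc
Trmt5, chr12:73286712-73286961, minus strand: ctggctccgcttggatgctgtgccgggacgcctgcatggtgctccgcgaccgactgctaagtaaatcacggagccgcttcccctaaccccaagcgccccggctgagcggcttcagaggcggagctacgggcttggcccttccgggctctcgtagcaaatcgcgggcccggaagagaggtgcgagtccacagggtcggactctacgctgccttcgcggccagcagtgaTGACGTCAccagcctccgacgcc

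The AP-1 site TGANTCA, searched on both strands, was in none of the 14 promoters, against 6.75% of the 32851 promoters in the table. The element TGACGTCA was in that of Trmt5, 23 bases before the start, against 1.55% of all promoters. The M-box TCATGTG, a site of the MITF family, was in none of the 14 against 3.25% of all promoters, and the E-box CACGTG, a site shared by MITF and clock factors, was in none against 6.02%. Such a match is a description of the letters in this window.

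The arrays carried the markers of their labelled tissues. Lor and Krt10, proteins of the outer epidermis, were at log2 levels of 17.10 to 18.33 in skin. Alb, the serum albumin gene of hepatocytes, was at 17.42 to 18.04 in liver, and Adipoq, the adipocyte hormone adiponectin, at 16.36 to 17.22 in fat. Every column correlated best with a column of its own tissue, and the highest correlation between any pair was 0.987, so no column was a copy of another. Some arrays stood apart. Liver KO 1, liver KO 2 and liver WT 3 had Lor at 11.26, 13.19 and 12.77, against 7.64 to 8.52 in the other liver arrays, and fat WT 1 and fat WT 3 had the epididymal gene Crisp1 at 13.93 and 13.48, against 3.5 to 7.47 in the other fat arrays. The epididymal gene Lcn5 was highest in fat KO 2 (10.84) and fat KO 3 (8.26), against 4.11 to 6.17 in the other fat arrays, and Adam7, another, was at 8.10 in fat KO 2 against 4.21 to 4.92. The scanner file of fat WT 2 correlated at 0.779 with its own column of the deposited table and at 0.884 to 0.904 with skin columns. That scanner file was not used. The table column of fat WT 2 correlated with the other fat columns at 0.953 to 0.980 and was kept. The 6 slides were unevenly filled with the genotypes, and of all tissues only fat had an array of each genotype on the same slide.

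The shared difference was tested gene by gene with limma on the deposited log2 values, as knockout minus wild type with tissue as a covariate, and a gene was called at a Benjamini-Hochberg adjusted p below 0.05 over all 13859 genes. In the 3 tissues, 11 genes fell in the knockout (0.0794% of genes tested) and 2 rose (0.0144%), which makes 13 in all (0.0938%). Gpnmb, Mapk8, Heatr5a, Cdkn3, L3hypdh, Gdf10, Dtd2, Wdfy4, Hddc3, Asb4 and Pisd-ps3 were the genes that fell, and Trmt5 and Ccnb1ip1 those that rose. At an unadjusted p below 0.05, 354 genes were higher (2.55%) and 691 lower (4.99%), or 1045 together (7.54%), where 692.95 would be expected with no difference at all. The median shared difference of all genes was -0.01, and the median standard error was 0.13. With slide as a fixed block, Gpnmb alone stayed called, while all 13 kept their direction and an unadjusted p below 0.05. On the slide that held fat KO 2 and fat WT 4, the difference between those arrays had the shared sign for all 13, at -4.84 for Gpnmb and -1.91 for Mapk8.

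**Figure D1:**
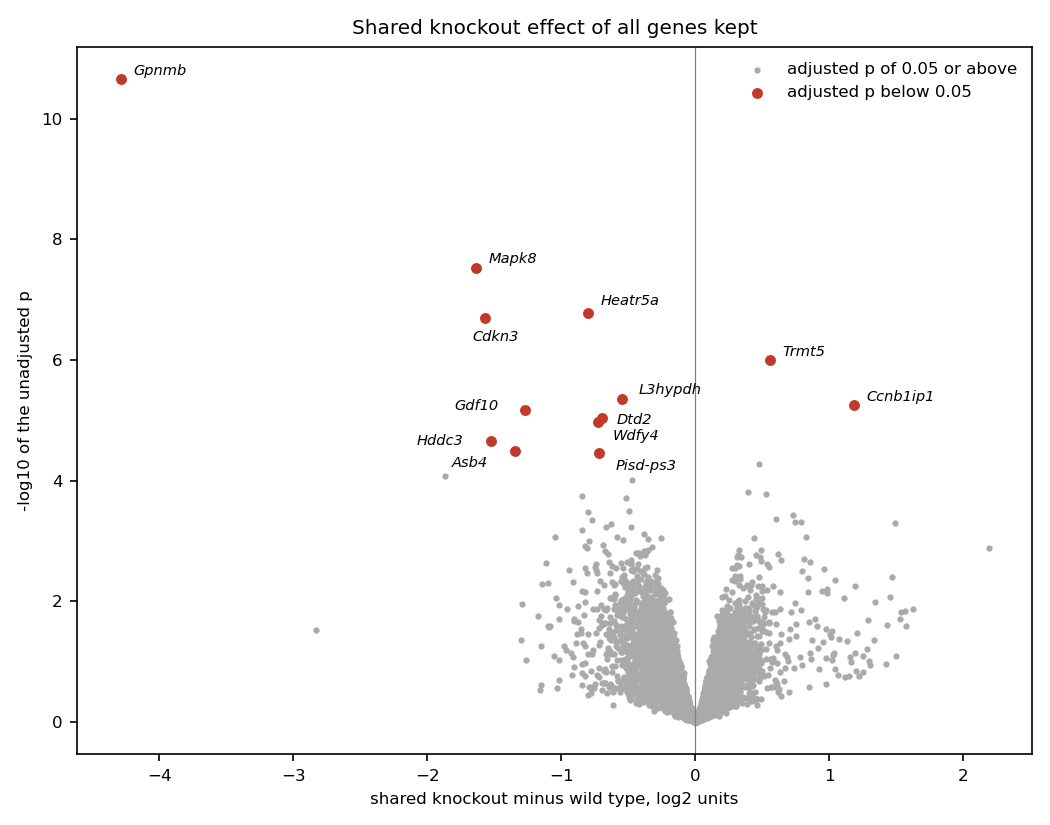
Shared difference, knockout minus wild type in log2 units (horizontal axis), against minus log10 of the unadjusted p from limma (vertical axis) for the 13859 genes tested, with the 13 called genes named. The 11 genes called lower lie to the left, with Gpnmb at -4.29, and Trmt5 (0.56) and Ccnb1ip1 (1.19) to the right.

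The differences within each tissue were then set beside each other. Across the 13859 genes, the difference in skin correlated with that in liver at r = 0.01 and with that in fat at r = -0.07, and the difference in liver with that in fat at r = 0.07, where genes are not independent replicates. The same sign in all 3 tissues was seen for 3171 genes (22.9%). The 13 called genes had the same sign in all 3, a description of the same arrays that called them. Knockout and wild-type arrays did not overlap, in the same direction in each of the 3 tissues, for 5 genes (0.0361%). Gpnmb, Heatr5a and Hddc3 were lower (0.0216%) and Trmt5 and Ccnb1ip1 higher (0.0144%). No gene outside the 13 was apart in this way.

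**Figure D2:**
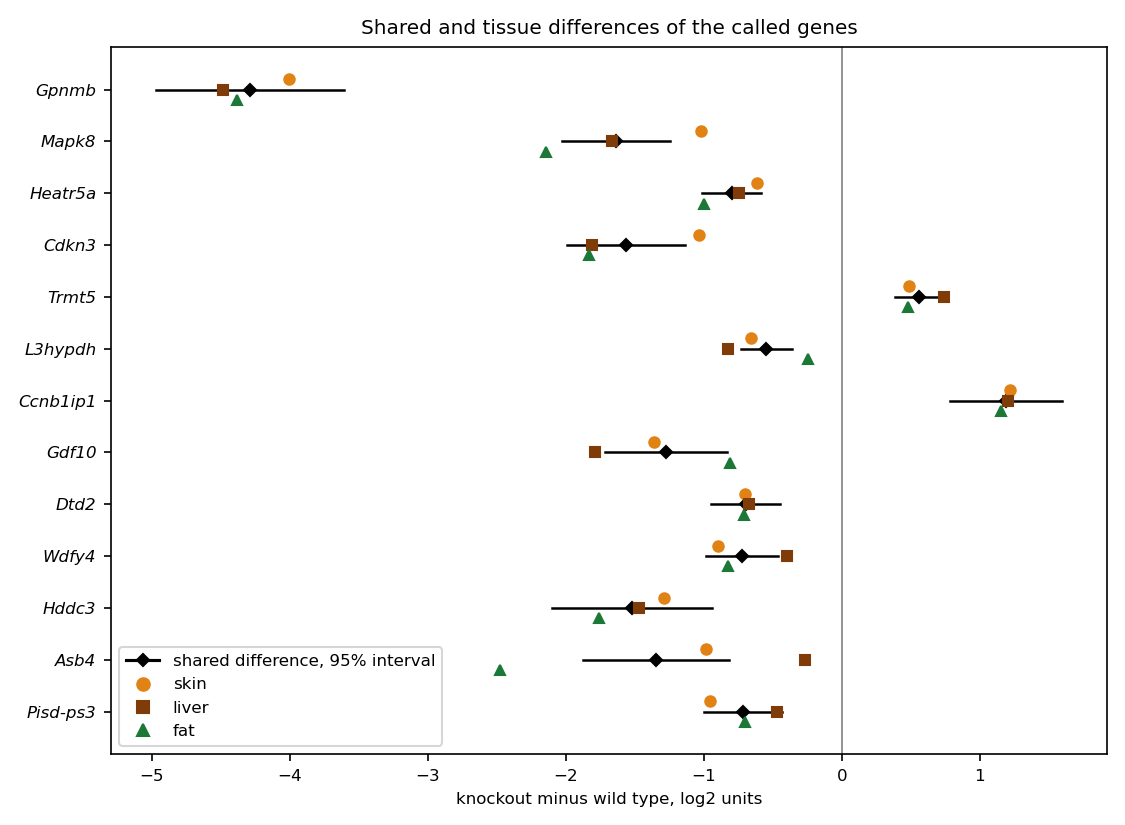
Knockout minus wild type (log2) of the 13 called genes in skin, liver and fat, with the shared difference and its 95% confidence interval. Gpnmb is near -4 in every tissue, while Asb4 runs from -0.26 in liver to -2.47 in fat.

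The targeted gene came first as a check of the labels. The Mapk8 probe used lies at chr14:34204748-34204807 (mm9, as the array's design gives it). In skin its log2 level was 5.90, 5.80, 4.88 and 5.19 in the knockout arrays and 5.72, 6.76 and 6.92 in wild type. In liver it was 6.15, 5.48 and 5.35 against 7.09, 7.22 and 7.67. In fat it was 5.62, 5.97, 5.81 and 5.38 against 8.0, 7.65, 7.84 and 7.88. Liver and fat arrays were apart, whereas skin WT 1 lay within the range of the skin knockouts. Mapk8 fell by 1.64 on the log2 scale (SE 0.19, adjusted p = 2.03e-04). No skin knockout array was well above background. Raising that dim group to the lowest signal above background, where that is higher, left the difference unchanged. The point estimate was 3.11-fold lower on the deposited values and is not a minimum. From the scanner files the difference was -0.93 with normexp background correction and quantile normalization and -2.20 with scaling to the 75th percentile, both called. A second Mapk8 probe, above background on 7 arrays, gave -1.21, and 3 dimmer ones gave -0.40, -0.14 and -0.11. The Mapk8 call was lost without the fat arrays (-1.32, adjusted p = 0.230) and with slide as a fixed block (-1.22, adjusted p = 0.241).

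Of 21 genes for JNK cascade kinases and scaffolds, Mapk8 was the only one called, and it was also the only one with an unadjusted p below 0.05, against 7.54% of all genes. Mapk9, which encodes JNK2, had a shared difference of -0.08 (95% confidence interval -0.34 to 0.18, adjusted p = 0.881). Mapk10, the gene of the neuronal isoform JNK3, was well above background on 1 array and was not tested. Nnt, a mitochondrial transhydrogenase that is mutated in the C57Bl6/J substrain but intact in others, had a difference of 0.02 (adjusted p = 0.970). Among 13 other MAP kinases, none was called, and Mapk3 (ERK1) was at -0.25.

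Of 17 AP-1 and JNK-target transcription factors, none was called and 13 were on the lower side, with a list median of -0.16 against -0.01 for all genes. Those with an unadjusted p below 0.05 were Atf3 (-0.60), a stress-induced partner of Jun, Jun itself (-0.28) and Mafk (-0.27). Their adjusted p-values lay between 0.483 and 0.563. By tissue the list's medians were -0.24 in skin, -0.16 in liver and -0.04 in fat. The 13 dual-specificity phosphatases, which switch MAP kinases off, had none called, a median of -0.07 and 2 members higher at an unadjusted p below 0.05. Of those, Dusp4 was at 0.33, and Dusp2, at 0.94, stood at 2.31 in skin and at 0.14 and 0.37 in liver and fat.

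The largest shared difference by far was in Gpnmb, a transmembrane glycoprotein of lysosome-rich cells such as macrophages and melanocytes, measured at chr6:49006386-49006445 (mm9). In skin its log2 level was 7.30, 7.27, 7.61 and 6.52 in the knockout and 10.02, 11.98 and 11.54 in wild type. In liver it was 6.74, 5.48 and 4.70 against 10.74, 9.29 and 10.34. In fat it was 9.54, 9.98, 10.38 and 9.63 against 12.44, 14.93, 14.86 and 14.83. Every knockout array lay below every wild-type array of its tissue. Of the knockout arrays, skin KO 1, liver KO 2 and liver KO 3 were not well above background. Gpnmb fell by 4.29 on the log2 scale (SE 0.33, adjusted p = 3.06e-07), or 19.5-fold, as the skin difference of -4.0, the liver difference of -4.48 and the fat difference of -4.38 show. It was the only gene called under each of the 42 alternatives with a test, at adjusted p-values of 1.72e-08 to 0.0495. From the scanner files the Gpnmb difference was -3.77 with normexp and -4.62 with the 75th percentile, both called. A second Gpnmb probe was well above background on 1 array and gave -0.55.

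The genes that Gpnmb keeps company with in lipid-associated macrophages, the cells that take up fat in obese tissue, were set beside it. Of 16 such genes tested, Gpnmb was the one called, 15 were negative, and 6 had an unadjusted p below 0.05, all lower. The list's median was -0.32, made up of 0.02 in skin, -0.31 in liver and -0.76 in fat. Itgax, the integrin CD11c, was at -0.82 (adjusted p = 0.388), Lipa, the lysosomal lipase, at -0.54 and Ctsk, a lysosomal protease, at -0.54. In fat Itgax ran from 11.67 to 12.77 in the knockout and from 12.97 to 13.84 in wild type, so that its fat arrays did not overlap. In skin and liver they overlapped. The mean log2 level of the 17 markers other than Gpnmb that were above background in at least 1 tissue was 12.93 to 13.45 in knockout fat and 13.61 to 14.19 in wild-type fat. It was 11.58 to 11.89 against 11.15 to 12.02 in skin and 10.35 to 11.49 against 11.04 to 11.35 in liver. General macrophage markers had none called of 18, a median of -0.19, and -0.50 in fat. Among them Cd68, a lysosomal membrane protein, was at -0.83 (-0.55 without fat KO 3) and Laptm5 at -0.46. In skin the mean level of the 17 lipid-associated macrophage markers had a median over arrays of 11.63 in the knockout and 11.90 in wild type. In bulk tissue fewer cells of a type and less RNA per cell cannot be told apart. What these markers contribute to the Gpnmb difference was not tested.

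**Figure D3:**
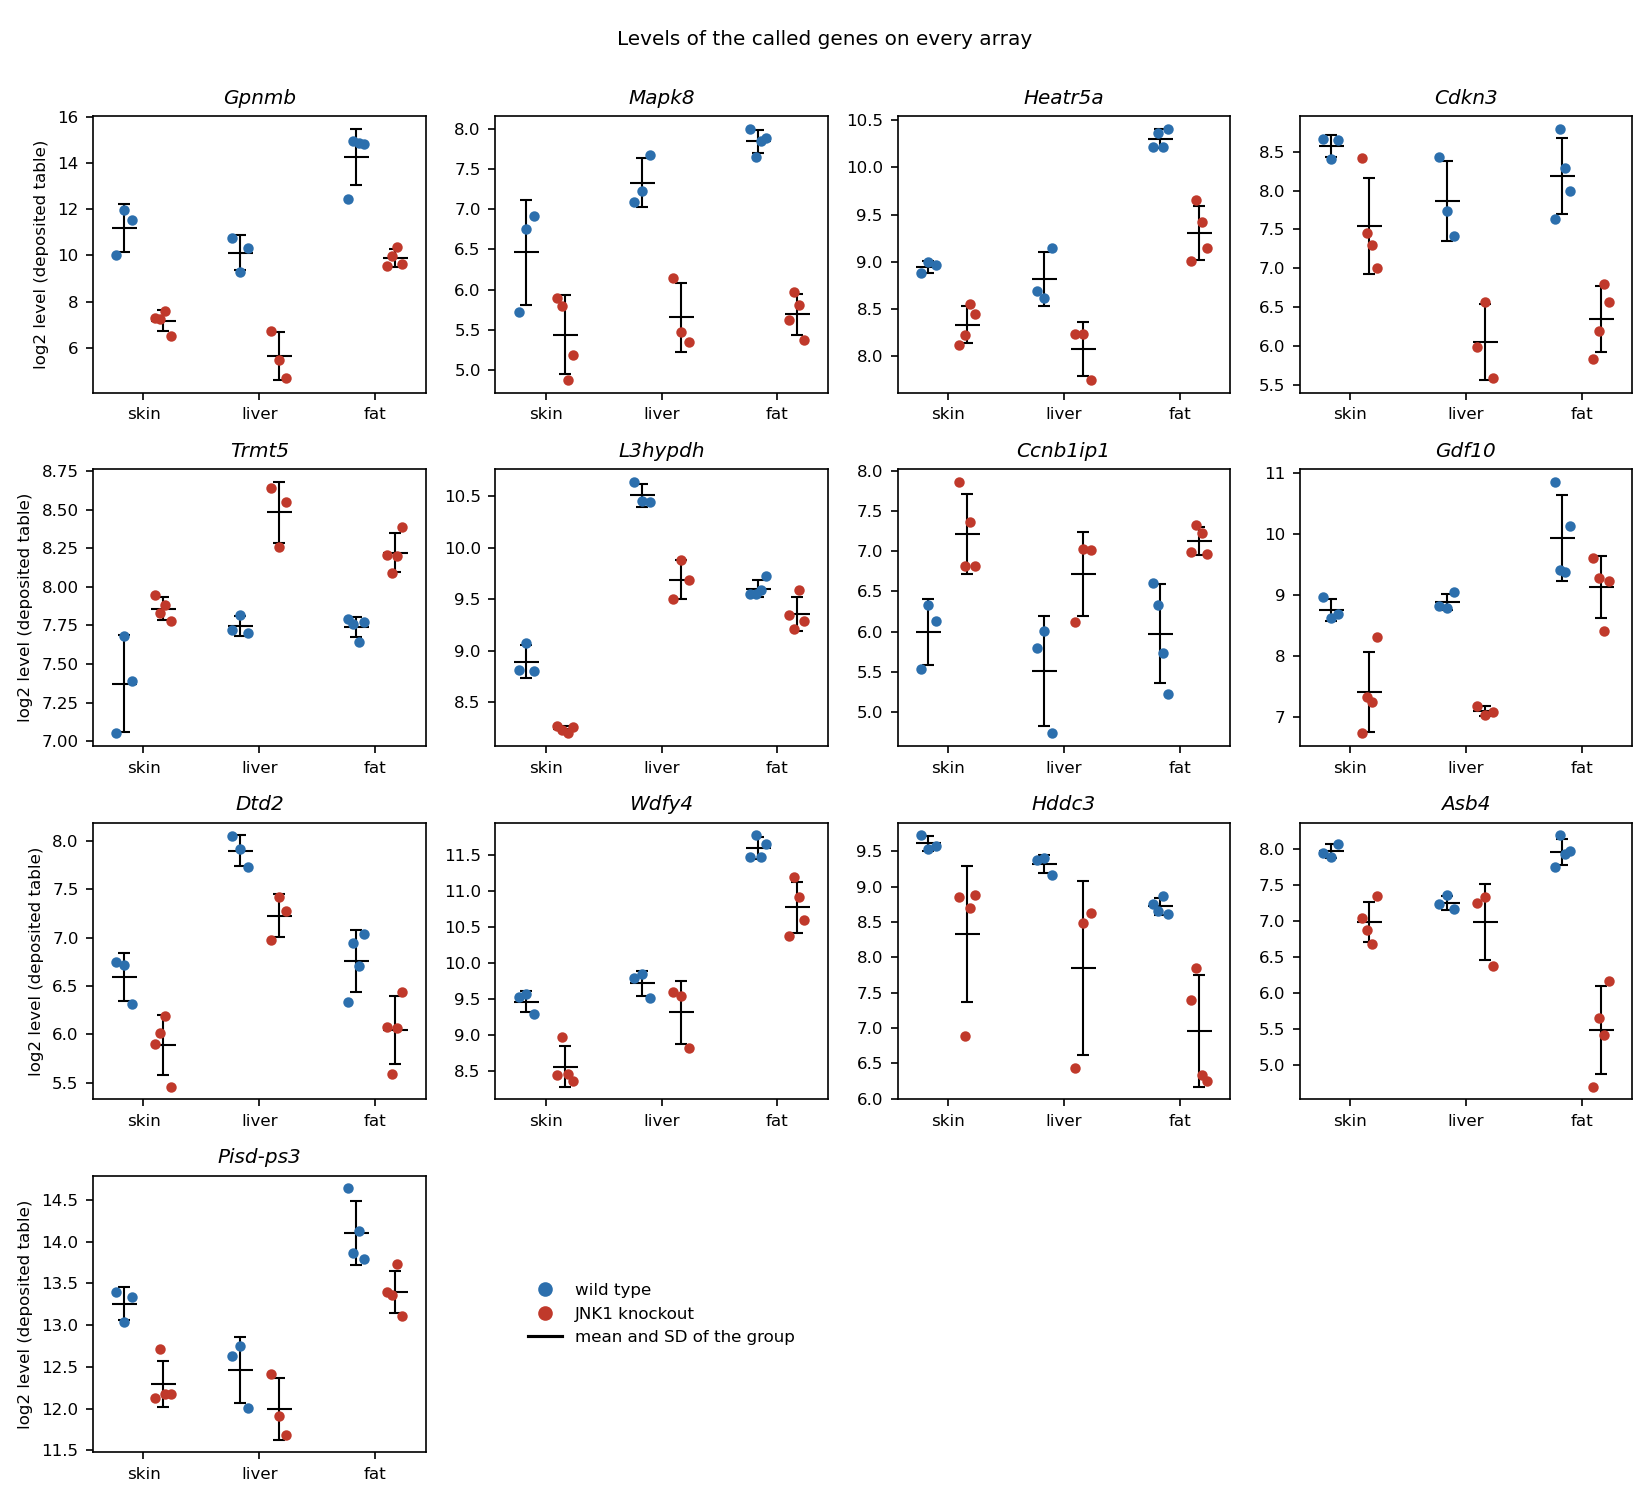
Log2 level of the 13 called genes on each of the 21 arrays, by tissue and genotype, 1 point per array, with the group mean and its SD as bars and a vertical scale of its own for each gene. Gpnmb, Heatr5a, Hddc3, Trmt5 and Ccnb1ip1 show no overlap of the genotypes in any tissue, and the Hddc3 knockout arrays are scattered from 6.25 to 8.88.

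Of the 12 called genes with a position, 9 were on chromosomes 12 and 14, which hold 984 of the genes tested. On chromosome 14, which carries Mapk8, 5 of 472 genes were called (1.06%, against 0.0938% of all) and 11.9% had an unadjusted p below 0.05. On chromosome 12, 4 of 512 were called (0.781%) and 9.18% passed the unadjusted threshold. Within 1 Mb of the Mapk8 probe, 13 other genes were tested, 2 were called and 5 passed the unadjusted threshold, with a median of -0.30. Within 5 Mb to each side, 2 of 60 were called and 11 (18.3%) passed it, and within 10 Mb 2 of 86 were called and 12 (14%) passed it. Within 20 Mb, which takes in Cdkn3 and Ccnb1ip1, 4 of 203 were called and 30 (14.8%) passed it. The median in that wider window was 0.03.

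Wdfy4, a BEACH-domain protein used by dendritic cells in cross-presentation, lies 0.432 Mb from Mapk8 (chr14:33772821-33772880). Its log2 level ran from 8.37 to 8.98 in knockout skin and from 9.30 to 9.57 in wild type, and from 10.38 to 11.20 against 11.47 to 11.78 in fat, with no overlap in either. In liver, 8.82 to 9.60 overlapped 9.52 to 9.85. Wdfy4 fell by 0.72 on the log2 scale (SE 0.12, adjusted p = 0.0145). The call was lost without skin WT 2 (adjusted p = 0.0522), without all skin arrays (adjusted p = 0.293) and without all fat arrays (adjusted p = 0.535). From the scanner files it was lost with the 75th percentile (-0.76, adjusted p = 0.0686) and kept with normexp (-0.68, adjusted p = 0.0152).

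Gdf10, a secreted growth factor of the TGF-beta superfamily, lies 0.543 Mb from Mapk8 on the other side (chr14:34748161-34748220). It was at 7.04 to 7.19 in knockout liver and at 8.80 to 9.05 in wild type. In skin it was at 6.74 to 8.31 against 8.63 to 8.97, again with no overlap. In fat, 8.41 to 9.61 overlapped 9.38 to 10.86. Gdf10 fell by 1.27 (SE 0.21, adjusted p = 0.0117), or 2.41-fold. The call was lost without all skin arrays (adjusted p = 0.211) and without all liver arrays (adjusted p = 0.406). It was kept without all fat arrays (adjusted p = 0.0176). Among genes chosen after their values were seen, Sncg and Arhgap22, also within 1 Mb of Mapk8, had shared differences of -0.67 and -0.39, neither called.

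Farther along the chromosome lay Cdkn3 and Ccnb1ip1, 13.2 and 17.2 Mb from Mapk8. Cdkn3, a phosphatase that removes an activating phosphate from cyclin-dependent kinases, was measured by a probe spanning chr14:47389608-47391131. Its levels were 5.59 to 6.57 in knockout liver against 7.42 to 8.43, and 5.83 to 6.79 in knockout fat against 7.64 to 8.80. In skin, where skin KO 1 reached 8.42, the groups overlapped at 7.0 to 8.42 against 8.41 to 8.67. Cdkn3 fell by 1.57 (SE 0.20, adjusted p = 7.05e-04), or 2.96-fold. From the scanner files with normexp the difference was -0.98, still called. A second Cdkn3 probe of similar brightness gave -0.26, and with the mean of all its probes the gene was not called (-0.91, adjusted p = 0.129). Of 27 other cell cycle genes tested, none was called and the median was -0.02. By tissue that median was 0.40 in skin, -0.33 in liver and -0.20 in fat.

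Ccnb1ip1, a ubiquitin-ligase-like protein required for meiotic crossing-over and also known as HEI10, rose. Its probe (chr14:51409317-51409376) read 7.86, 6.82, 7.36 and 6.82 in knockout skin against 5.54, 6.33 and 6.13. In liver it read 6.12, 7.03 and 7.01 against 5.80, 6.01 and 4.74. In fat it read 6.99, 7.32, 7.22 and 6.97 against 6.60, 6.33, 5.74 and 5.23. All knockout arrays were the higher ones, and wild-type skin and liver were not well above background. The shared difference was 1.19 (SE 0.20, adjusted p = 0.0110). With those dim groups set to the lowest signal above background, the point estimate was 2.21-fold higher on the deposited values. From the scanner files the shared difference was 0.71 with normexp and quantile normalization and 2.07 with scaling to the 75th percentile, both called.

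**Figure D4:**
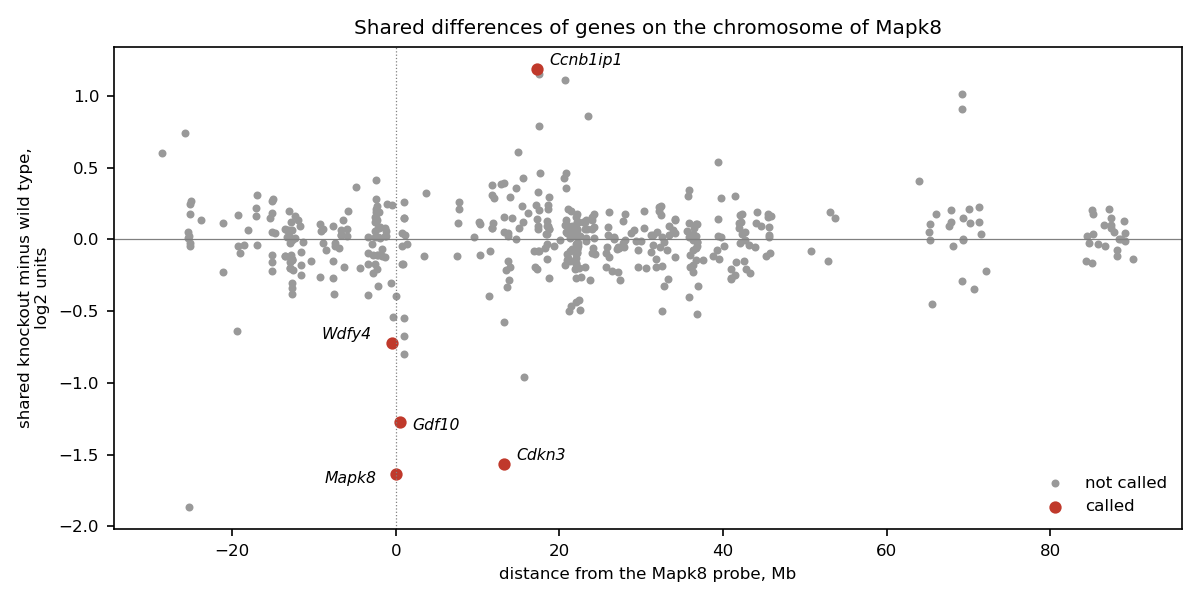
Shared difference (log2, vertical axis) of each gene tested on chromosome 14 against its distance from the Mapk8 probe in Mb (horizontal axis), with the called genes named. Wdfy4 and Gdf10 lie within 1 Mb of Mapk8, and Cdkn3 (-1.57) and Ccnb1ip1 (1.19) between 13 and 18 Mb from it.

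The 4 called genes of chromosome 12 formed neighbouring pairs. Heatr5a and Dtd2 lie 0.124 Mb apart, and L3hypdh and Trmt5 1.21 Mb apart. Heatr5a, a HEAT-repeat protein (chr12:52977066-52977125), was at 8.12, 8.23, 8.55 and 8.45 in knockout skin against 8.88, 9.0 and 8.97. The liver arrays stood at 8.24, 8.24 and 7.75 against 8.69, 8.62 and 9.15. The fat arrays stood at 9.01, 9.65, 9.42 and 9.15 against 10.22, 10.36, 10.21 and 10.41. Every knockout array was below the wild-type arrays of its tissue, with a shared fall of 0.80 (SE 0.10, adjusted p = 7.05e-04), or 1.74-fold. The other 3 Heatr5a probes, all dimmer, disagreed in sign at -0.39, 0.27 and -0.25. Dtd2, a deacylase that clears mischarged transfer RNAs (chr12:53100843-53105907), fell by 0.70 (SE 0.12, adjusted p = 0.0140). Its 3 tissues differed little, at -0.70, -0.67 and -0.71, although fat arrays overlapped at 5.59 to 6.44 against 6.33 to 7.04. Dimmer Dtd2 probes gave 0.17 and -0.19. Dtd2 was not called with the mean of its probes (-0.27, adjusted p = 0.509), nor from the scanner files with normexp (-0.40, adjusted p = 0.0733) or the 75th percentile (-0.89, adjusted p = 0.0548).

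L3hypdh, the dehydratase of trans-3-hydroxyproline (chr12:73174667-73174726), was at 9.5 to 9.88 in knockout liver against 10.44 to 10.64. In skin it was at 8.20 to 8.27 against 8.80 to 9.08. Its fat arrays overlapped, at 9.21 to 9.59 against 9.55 to 9.73. L3hypdh fell by 0.55 (SE 0.09, adjusted p = 0.0100), or 1.46-fold. The call was lost without all skin arrays (adjusted p = 0.293) and without all liver arrays (adjusted p = 0.317). It was kept without all fat arrays (adjusted p = 0.023).

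Trmt5, a transfer RNA methyltransferase whose promoter is printed above, was measured at chr12:74381428-74381487. Its log2 level was 7.95, 7.83, 7.88 and 7.78 in knockout skin against 7.05, 7.68 and 7.39. Liver arrays read 8.64, 8.26 and 8.55 against 7.72, 7.82 and 7.70. Fat arrays read 8.21, 8.09, 8.20 and 8.39 against 7.79, 7.76, 7.64 and 7.77. All knockout arrays exceeded the wild-type arrays of their tissue by a small margin, and Trmt5 rose by 0.56 (SE 0.08, adjusted p = 2.76e-03), or 1.47-fold. Its other probe was not well above background on any array.

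The remaining called genes lay elsewhere. Hddc3, a metal-dependent phosphatase also known as MESH1 (chr7:87488629-87488688), was at 8.85, 6.89, 8.70 and 8.88 in knockout skin against 9.73, 9.53 and 9.58. In liver it was at 6.43, 8.49 and 8.63 against 9.38, 9.40 and 9.17. The fat arrays read 7.40, 7.85, 6.34 and 6.25 against 8.76, 8.65, 8.87 and 8.61. Within each tissue the wild-type arrays lay close together and above the knockout arrays, which were scattered. Hddc3 fell by 1.52 (SE 0.28, adjusted p = 0.0279), or 2.87-fold. The call held without 11 of the 21 arrays taken out in turn, and adjusted p reached 0.0736 without fat WT 3. From the scanner files the call was lost with the 75th percentile (-1.60, adjusted p = 0.110) and kept with normexp (-1.18, adjusted p = 0.0209).

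Asb4, an imprinted gene for a substrate adaptor of ubiquitin ligases (chr6:5382886-5382945), was the called gene whose difference varied most between tissues. The fat arrays stood at 4.70, 5.65, 5.42 and 6.17 in the knockout against 7.75, 8.19, 7.93 and 7.97. In skin it was at 7.04, 6.87, 6.68 and 7.34 against 7.94, 7.89 and 8.07. In liver, 7.25, 7.33 and 6.38 overlapped 7.23, 7.36 and 7.16. The shared fall was 1.35 (SE 0.25, adjusted p = 0.0365), and its tissue difference had an adjusted p of 0.0478. The call held without 8 of the 21 arrays in turn, with adjusted p up to 0.0926 without fat WT 3. It was lost without the fat arrays (-0.65, adjusted p = 0.535) and kept at -0.78 with normexp. Of the 15 other imprinted growth genes tested, none was called, and Igf2r was at -0.30.

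Pisd-ps3, a pseudogene of phosphatidylserine decarboxylase, had no position in the array's design, and its signal cannot be separated from that of near-identical copies. It was at 12.13 to 12.71 in knockout skin against 13.04 to 13.40, and at 13.11 to 13.73 in knockout fat against 13.79 to 14.64, with no overlap in either. In liver the ranges overlapped, at 11.68 to 12.41 against 12.01 to 12.75. The shared fall was 0.72 (SE 0.14, adjusted p = 0.0374), held without 6 of the 21 arrays in turn, with adjusted p up to 0.103 without skin WT 3. A second probe of Pisd-ps3, on chromosome 11, gave 0.07, and with the mean of both the gene was not called (-0.32, adjusted p = 0.489). From the scanner files the call was lost with the 75th percentile (-0.79, adjusted p = 0.0686) and kept with normexp (-0.77, adjusted p = 0.0338).

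A gene outside the called set came close. Rpp14, a protein subunit of RNase P, was at 5.95, 5.86, 5.77 and 6.24 in knockout skin against 7.77, 8.19 and 8.18. In fat it was at 5.70, 5.29, 4.99 and 5.97 against 8.16, 5.07, 8.48 and 8.50. In liver it was at 5.72, 5.96 and 4.76 against 6.06, 5.84 and 8.60. The wild-type arrays thus split, since fat WT 2, liver WT 1 and liver WT 2 lay near the knockouts and the others some 2 log2 units higher or more. Its shared difference was -1.87 (SE 0.38, adjusted p = 0.0782), and it passed the threshold without fat WT 2 (-2.14, adjusted p = 0.00215). Rpp14 is also on chromosome 14. The other 10 tested subunits of RNase P and RNase MRP had none called.

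Beyond these genes, 49 lists of pathway and cell type genes were described, with 854 members tested. The 3 list genes called were Mapk8, Gpnmb and Asb4, and so every other list gene below is given by its value and not as a change. At an unadjusted p below 0.05, the shares of all genes to compare with are 2.55% higher and 4.99% lower.

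Genes of insulin signalling, the pathway that JNK1 is best known to restrain, had none called of 20 and a median of -0.06. Grb14, an adaptor that inhibits the insulin receptor, was at -0.50 and Pik3cb, a catalytic subunit of phosphoinositide 3-kinase, at -0.21. Oxidant defence had none called: of 32 NRF2 targets and antioxidant enzymes, 1 was higher and 2 lower at the unadjusted threshold, and the median was -0.01. Keap1, the repressor of NRF2, was at -0.28. Of 17 sources of reactive oxygen, none was called and the median was -0.10. Ncf4, a subunit of the phagocyte NADPH oxidase, was at -0.43 and Aox3, an aldehyde oxidase, at 0.48. Of 15 genes for base excision repair of oxidised DNA, 1 passed the unadjusted threshold, Ung at 0.23, and the median was 0.04.

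Genes of the endoplasmic reticulum's folding machinery lay mostly on the higher side, with none called. Of 22 chaperones and unfolded protein response genes, 17 were positive, 5 were higher at the unadjusted threshold and none lower, with a median of 0.12. Pdia4, a disulphide isomerase, was at 0.45, Hspa5, the chaperone BiP, at 0.38, Creld2 at 0.39 and Manf at 0.32. The list's medians were 0.13 in skin, 0.34 in liver and -0.13 in fat. Creld2 itself stood at 1.27 in liver, 0.16 in skin and -0.07 in fat, with a tissue difference at an adjusted p of 0.0556. Of 17 ATF4 targets, which respond to amino acid shortage, none was called. At the unadjusted threshold, Asns (asparagine synthetase, 0.58) and Phgdh (serine synthesis, 0.40) were higher and Gdf15, a stress hormone, lower at -0.60. In skin, liver and fat, Asns stood at 0.46, 0.99 and 0.38 and Phgdh at -0.20, 0.73 and 0.66. Gdf15 stood at -0.54, -0.001 and -1.10.

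In the circadian clock, 10 of 14 core genes were negative with a median of -0.23, and Bhlhe40, a repressor of CLOCK and BMAL1, was at -0.43. Of 10 output factors, 3 were lower at the unadjusted threshold: Dbp (-0.89), Usp2 (-0.74) and Tef (-0.52). Nfil3, a repressor that opposes Dbp at the same sites, was at 0.73 (adjusted p = 0.224) and positive in each tissue, at 0.55 in skin, 1.04 in liver and 0.64 in fat. Usp2 differed between the tissues in value, at -0.31 in skin, -2.53 in liver and 0.22 in fat. The labels give the light cycle but no hour of collection, so its part in these values was not tested.

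Lipid and energy genes had none called. None of 35 oxidative phosphorylation genes passed even the unadjusted threshold. Of 18 lipid droplet and lipolysis genes, 15 were negative with a median of -0.16. Cidea (-1.14) and Cidec (-1.04), which fuse lipid droplets, stood at -2.75 and -2.78 in liver, farther from 0 than in skin or fat. Mogat1, an enzyme of triglyceride synthesis, was at -0.81, with -0.88 in skin, -1.41 in liver and -0.29 in fat. Of 23 cholesterol genes 19 were negative with a median of -0.12.

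Among immune and matrix genes, all 16 antigen presentation genes were negative, with a median of -0.21 and 1 (H2-T23, at -0.23) past the unadjusted threshold. Of 31 collagens and matrix genes, 24 were negative, 6 were lower and 2 higher at the unadjusted threshold, and the median was -0.17. Mmp2, a gelatinase, was at -0.45, Col3a1 at -0.43, and the collagen-crosslinking oxidases Loxl2 and Loxl1 at -0.40 and -0.27. Erythroid markers were positive in 7 of 7, led by Ahsp, the haemoglobin-stabilising protein, at 1.49 (adjusted p = 0.250). With its dim wild-type liver and fat groups set to the lowest signal above background, the point estimate for Ahsp was 2.58-fold. The mean log2 level of the 8 erythroid markers above background in at least 1 tissue was 9.73 to 10.38 in knockout fat. It was 9.29 to 9.41 in wild-type fat, with no overlap. Liver arrays were apart as well, at 9.92 to 10.35 against 9.71 to 9.86. Skin arrays overlapped, at 9.12 to 9.51 against 8.92 to 9.40. The erythroid list's median was 0.89 for fat and 0.25 for liver, but -0.33 for skin. Only 2 of the 7 had the same sign in every tissue. Under the 4 other scalings of the arrays, the medians of the AP-1, chaperone, clock, lipid droplet, antigen presentation, matrix and lipid-associated macrophage lists kept their sign, whereas, of the other list medians printed here, those of the NRF2, oxidative phosphorylation and cell cycle lists did not in every one.

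**Figure D5:**
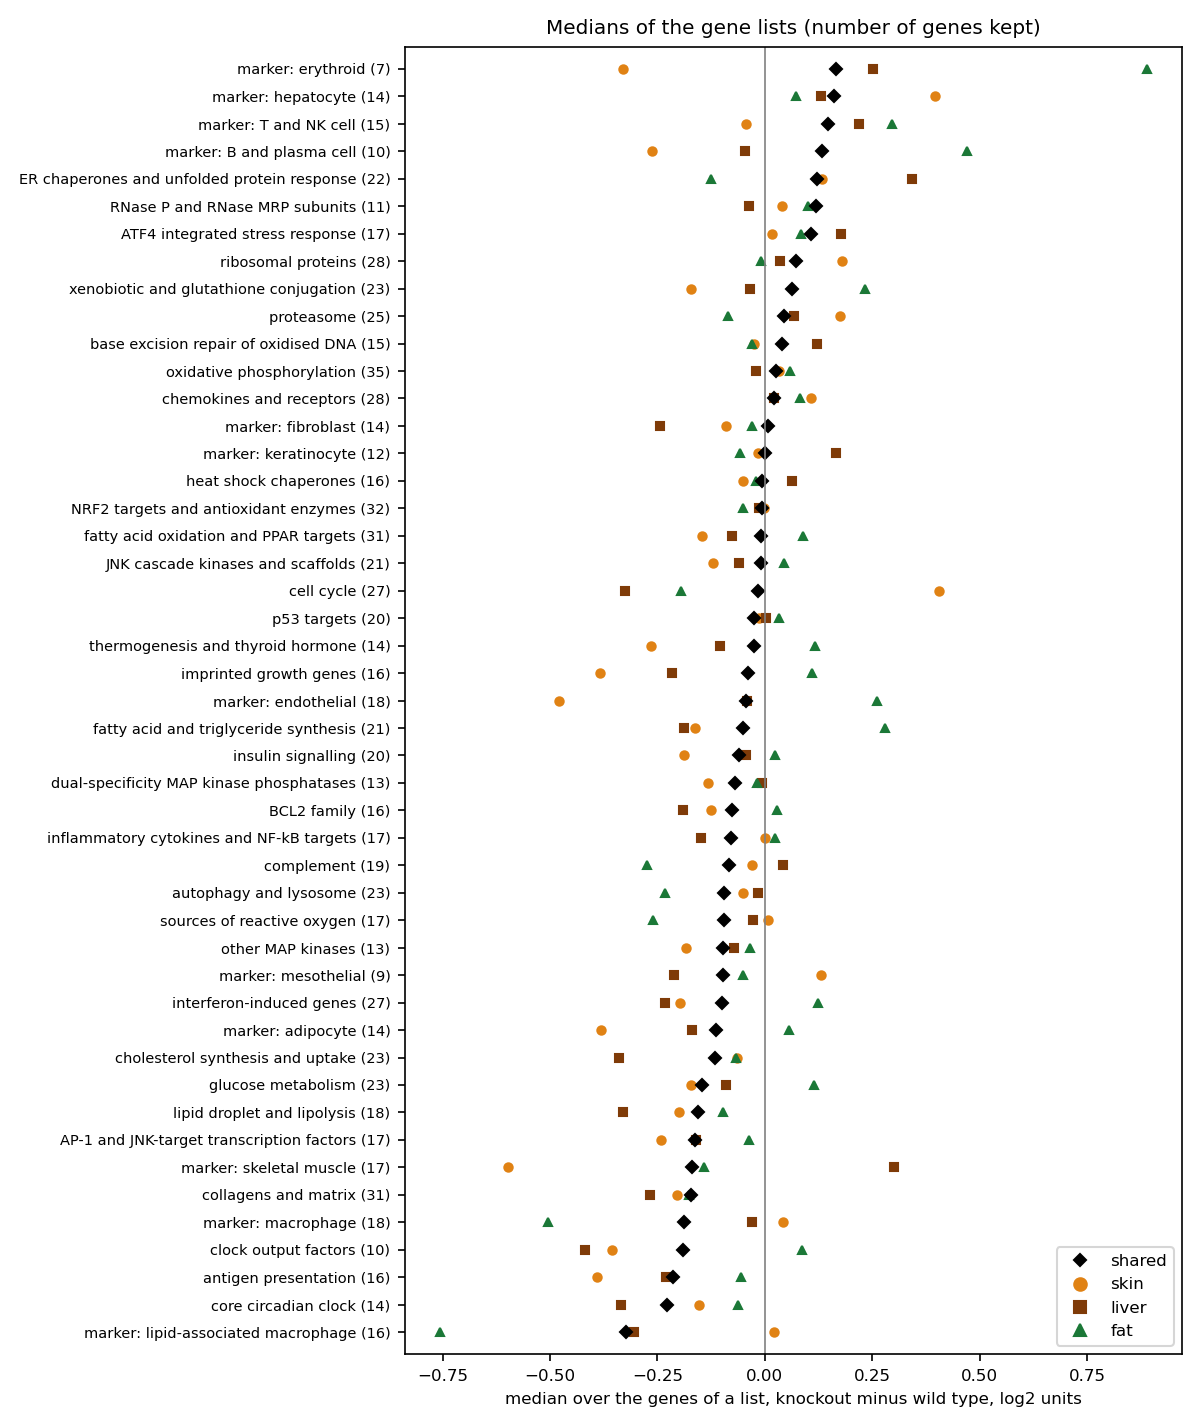
Median shared difference (log2, horizontal axis) of each gene list with 7 or more genes tested, the number in brackets, with its medians in skin, liver and fat, and a line at 0. The lipid-associated macrophage list is the farthest to the left, at -0.32, with fat at -0.76 and skin at 0.02.

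Whether the knockout's effect differed between the tissues was tested with an F test of genotype by tissue. It called 14 genes (0.101%), and 1476 (10.7%) had an unadjusted p below 0.05. With slide as a fixed block, limma called 0 genes, and 809 had an unadjusted p below 0.05. Of the 14 genes, 2 are known by accession only. Asb4 was the single gene called in both tests. Bcl7c, a subunit of BAF chromatin remodelling complexes, ran from 9.59 to 10.35 in knockout liver against 12.03 to 12.27 in wild type, a difference of -2.12, beside -0.15 in skin and -0.22 in fat (adjusted p = 0.0136). Rgs16, a brake on G protein signalling, was likewise at -2.23 in liver (11.05 to 11.68 against 13.06 to 14.11), 0.18 in skin and 0.33 in fat (adjusted p = 0.0148). Krtap19-1 and Krtap16-3 encode keratin-associated proteins of the hair shaft. Krtap19-1 was at 14.85 to 17.56 in knockout skin and 9.95 to 12.86 in wild-type skin, a difference of 4.87, with -0.01 in liver and -0.18 in fat (adjusted p = 0.0148). For Krtap16-3, not well above background in liver, the skin difference was 5.15, against -0.41 for fat (adjusted p = 0.0148). The mean log2 level of 13 hair follicle markers was 12.45 to 14.54 in knockout skin against 9.42 to 11.18 in wild type, and its part in these differences was not tested. The count of 14 moved from 2 without skin WT 3 to 44 without skin KO 4.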

How the data were processed

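The values analysed are those of the deposited value table of the authors, on a log2 scale. Column medians lay between 5.76 and 6.0, and every column but that of fat WT 2 correlated at 0.972 or more with the log2 signal of its scanner file, higher meaning brighter. Its normalization is not given in the sources used here. The submitters' processing notes name Agilent Feature Extraction 10.7.3.1 and limma. Intensity values of the scanner files, background-subtracted by Feature Extraction per the file headers, gave the well-above-background marks and served as alternatives, leaving out fat WT 2. Control spots were left out and no spot was saturated. Probes (41174) were named through RefSeq accessions (GRCm38.p6 table), or else by the symbol in the file, and the probe with the highest mean stood for a gene. Probe positions are in mm9 per the file headers. No mm9 annotation was used, so exons and UTRs are not given.

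In R 4.3.3, limma 3.58.1 fitted tissue plus genotype to all 21 columns (17 residual degrees of freedom), with Benjamini-Hochberg adjustment. For a probe not above background in a group, the group's level was set to the lowest signal above background on each array where that is higher. The fold from it is a point estimate and not a minimum. Alternatives covered slide, replicate number, normalization, filter, probe choice, tissues and each array left out. The script was tested on simulated data.

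The genes named are Mapk8, Mapk9, Mapk10, Nnt, all called genes, up to 4 members of each list by smallest p, and the 5 genes with the smallest p for the tissue difference. Members and lists were chosen with earlier results of these data known. The number of arrays limits the precision.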

Additional observations from a re-analysis of the deposited data

Results flagged for a closer look

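In the groups of 4 arrays, the levels of 66 genes were looked at for a lone array, that is 198 sets of values, and 12 stood out by Dixon's criterion, where chance gives about 1 in 20. Among the called genes, Gpnmb was at 12.44 in fat WT 1 against 14.83 to 14.93 in the other wild-type fat arrays. In skin KO 2, Hddc3 was at 6.89 against 8.70 to 8.88, Wdfy4 at 8.98 against 8.37 to 8.47 and Pisd-ps3 at 12.71 against 12.13 to 12.18. Rpp14 was at 5.07 in fat WT 2 against 8.16 to 8.50, and Mapk9 at 8.33 in the same array against 7.83 to 7.90. Mapk10, dim throughout, was at 4.62 in skin KO 3 against 5.42 to 5.55. In fat KO 1, Asns was at 13.36 against 12.00 to 12.16, Bhlhe40 at 7.87 against 8.63 to 8.77 and Mgst1, a microsomal glutathione transferase, at 15.63 against 15.52 to 15.53. Manf was at 10.36 in fat WT 1 against 10.15 to 10.17, and Dbp at 11.30 in skin KO 1 against 14.64 to 15.03.

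The difference between knockout and wild type itself differed between tissues by limma's F test, with Benjamini-Hochberg adjusted p-values of 0.0136 for Bcl7c, 0.0148 each for Rgs16, Krtap19-1 and Krtap16-3, and 0.0478 for Asb4.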

How the results depend on the processing

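The 13 called genes kept their sign under all alternatives run, and 9 of them, Gpnmb to Dtd2 in order of p, also their call without each array in turn. With each tissue left out in turn, Gpnmb alone stayed called every time. The count of 2 higher and 11 lower genes became 0 and 1 with slide as a fixed block, 1 and 5 without skin, 0 and 6 without liver, 0 and 3 without fat, and 10 and 19 with array weights. In alternatives chosen after seeing the data, it became 1 and 7 without skin KO 1, skin WT 1 and fat KO 4, and 7 lower without the 2 fat arrays high in Crisp1. Leaving out 1 array gave 2 to 3 higher and 7 to 14 lower, with the 7 arising without skin WT 2.

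The 14 genes with a tissue difference in limma became 0 with slide as a fixed block (809 at an unadjusted p below 0.05), 3 without skin, 0 without liver (1662), 0 without fat (867), 22 with columns centred on their medians, 105 with genes above background in 1 tissue, 89 with no filter, 23 with the mean of all probes and 47 with array weights. After seeing the data, it became 38 without the 3 liver arrays high in Lor, 2 without the arrays of lowest correlation and 0 without the fat arrays high in Crisp1 (1242). Without 1 array it ran from 2 to 44: 2 without skin WT 3, 5 without skin WT 1, 6 without liver WT 2, fat WT 3 or fat WT 4, 8 without skin KO 1, skin KO 3, liver KO 1 or fat KO 1, 23 without skin KO 2, 42 without liver WT 3 and 44 without skin KO 4. The cause of these shifts was not tested.

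Mapk8 was at -0.93 with normexp and at -2.20 with 75th percentile scaling of the scanner files, both called, at -1.22 with slide as a fixed block and at -1.32 without fat, neither called, and at -1.79 to -1.57 without 1 array. Without skin the shared differences of Krtap19-1 and Krtap16-3 turned to -0.11 and -0.18. Cdkn3 at -0.91 was not called with the mean of its probes.

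The labels do not say whether replicate numbers pair the samples, and correlations over so few arrays cannot settle it. Same-numbered knockout and wild-type arrays of a tissue correlated at -0.16 to 0.28 in their deviations, over 0.1 in 2 of 10 pairs. Those of a genotype across tissues correlated at -0.11 to 0.23, over 0.1 in 3 of 19 pairs. These 3 were all wild type: skin WT 1 with liver WT 1 (0.23), liver WT 2 with fat WT 2 (0.21) and skin WT 3 with liver WT 3 (0.16). With the replicate number as a block, 2 genes were higher, 8 lower and 21 differed between tissues, and Mapk8 was at -1.63.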
